A study of Homo sapiens with 2 samples.

Results

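The genes described here are 52 genes of the short arm of human chromosome 5 (5p), listed in order from the tip of the arm, CCDC127, towards the centromere, RICTOR. They were chosen by the measured difference between the lines, because neighbours on the arm stood higher together, so that difference is given as a description and with no test. A probe set with a single gene symbol was found for 51 of the 52, among 19735 genes named on the arrays, and DAP is not analysed here. Of the 51 genes, 46 were above the background level on both arrays, 2 on 1 array only and 3 on neither. The label of the list holds for part of the arm only: 30 of the 46 had a positive difference and 16 a negative one, and the signs fell into successive stretches.

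HARA is an established cell line of human squamous lung cancer, and HARA-B4 is a subline of it that spreads strongly to bone. Total RNA of each was used. Both lines were cultured in RPMI medium with 10% serum and antibiotics, and no treatment or genetic change is named in the labels. Each line was measured on 1 Affymetrix array, so n = 1 for every value, no p-value can be given, and a difference between the arrays cannot be told apart from a difference between cultures of 1 line. HARA-B4 is 1 subline, and the labels do not say how it was derived.

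A chromosome arm is a physical unit, not a pathway. Many genes that lie side by side on it serve unrelated processes and share only their place on the DNA. Some share a start region, and some, such as IRX4 and IRX2, belong to the same family. The short arm of chromosome 5 is one of the arms often gained in lung cancers, and TERT, SKP2, DROSHA, GOLPH3 and RICTOR are among its genes that cancer studies have followed. These arrays measured RNA and not DNA.

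The arrays had similar overall levels, with a mean signal after removal of the outer 2% on each side of 115.6 for the parental line and 115.95 for the subline. The signal is the brightness of a probe set on a linear scale, and a gene took its brightest probe set. Background was the 95th percentile of 165 probe sets for olfactory, taste and vomeronasal receptor genes, a signal of 27.1. Receptor pseudogenes were included in this set after values of 5p genes had been seen. Without them (135 probe sets, a signal of 25.2) NPR3, SLC1A3 and EXOC3-AS1 were above background on both arrays in place of 1. Squamous and epithelial markers were present in both lines: 8 of 11 listed markers had a named probe set and 8 of these 8 were above background on both arrays, with KRT5 signals of 4723 (HARA) and 4504 (HARA-B4). Of 10 measured markers of blood, endothelial, fibroblast, alveolar and neuroendocrine cells, PECAM1 and SFTPB were above background on both arrays, SFTPC in HARA only, and the other 7 on neither. PECAM1 passed on both arrays by 1 of 5 probe sets (50.6 in HARA and 50.4 in HARA-B4). SFTPB did so by 1 of 4 (43.7 and 56.1), so both were low signals.

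Among the 46 genes of the list above background on both arrays, 22 stood higher in HARA-B4 by 1.5-fold or more, beside 9.57% of all 10202 genes above background on both arrays. At 2-fold, 14 of the 46 were higher, beside 3.13% of all genes. In the other direction 2 of the 46 were at least 1.5-fold lower, beside 10.2%, and 0 were at least 2-fold lower, beside 3.57%. The median log2 difference, HARA-B4 minus HARA, was 0.57 for the list and 0.02 for all genes. The higher counts restate how the list was made. What the choice did not set is where along the arm the values change.

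**Figure D1:**
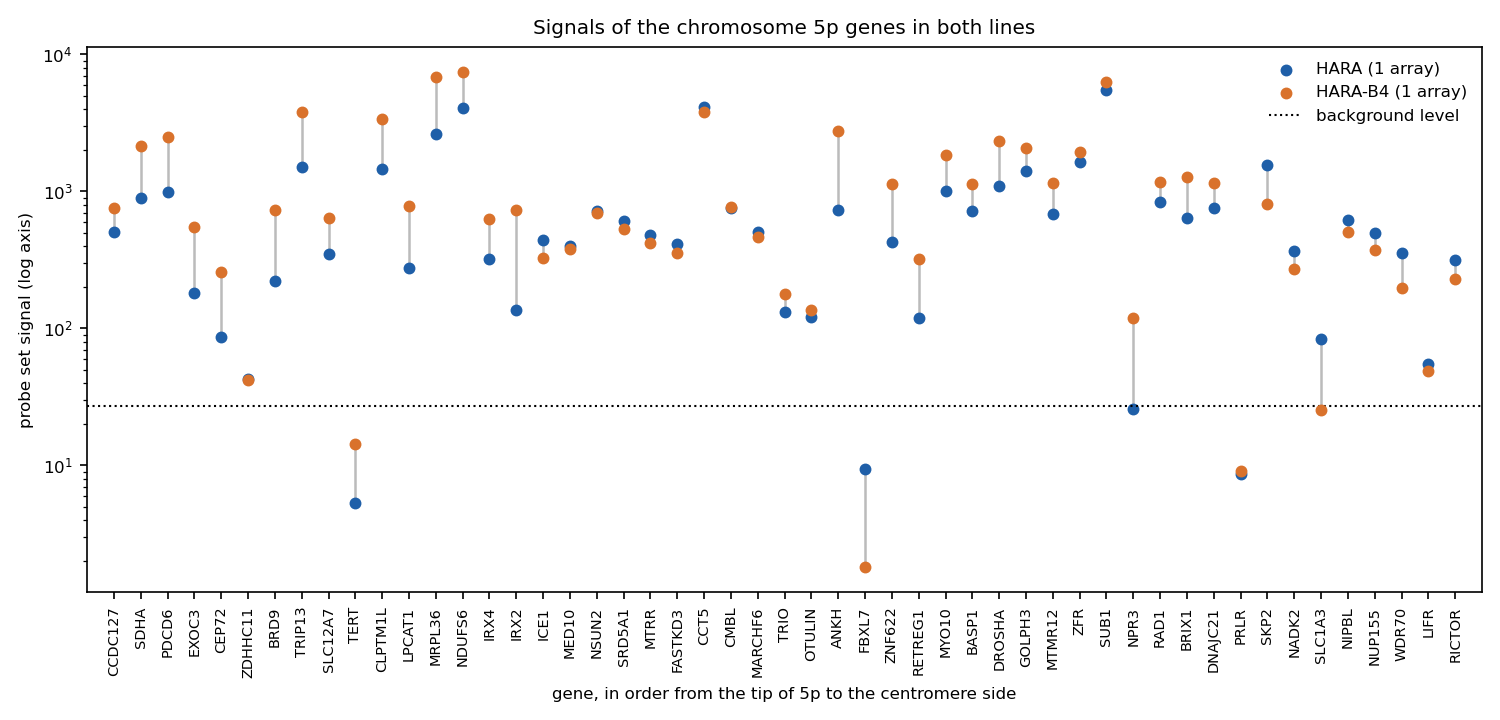
Probe set signal of the 51 measured genes of the list in HARA (blue) and HARA-B4 (orange), 1 array each, on a log axis in gene order, with grey lines joining the 2 values of a gene and a dotted line at the background signal of 27.1. HARA-B4 lies above HARA from CCDC127 to IRX2 except at ZDHHC11, where the points coincide, close to it from ICE1 to OTULIN, above it again from ANKH to DNAJC21 except at FBXL7, and below it from SKP2 to RICTOR.

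The running median of 9 successive genes above background on both arrays, in RefSeq order, reached 1.5-fold in 3 separate runs on 5p. The windows of the telomere-side run were centred from EXOC3 to IRX2, those of the mid-arm run from ANKH to RAI14, and those of the centromere-side run from HMGCS1 to EMB, which is the first measured gene of the long arm. In all, 35 of 73 windows centred on 5p (47.9%) reached this level, beside 1.72% of 9998 windows over all chromosomes and 1.79% of 392 windows on the long arm. The arm was chosen because neighbours stood higher together, so its high share of windows follows from that choice. The share over all chromosomes includes the windows of 5p. Windows also overlap and share genes, so these shares are descriptions. The stretches used below were bounded after the values were seen and have no test.

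**Figure D2:**
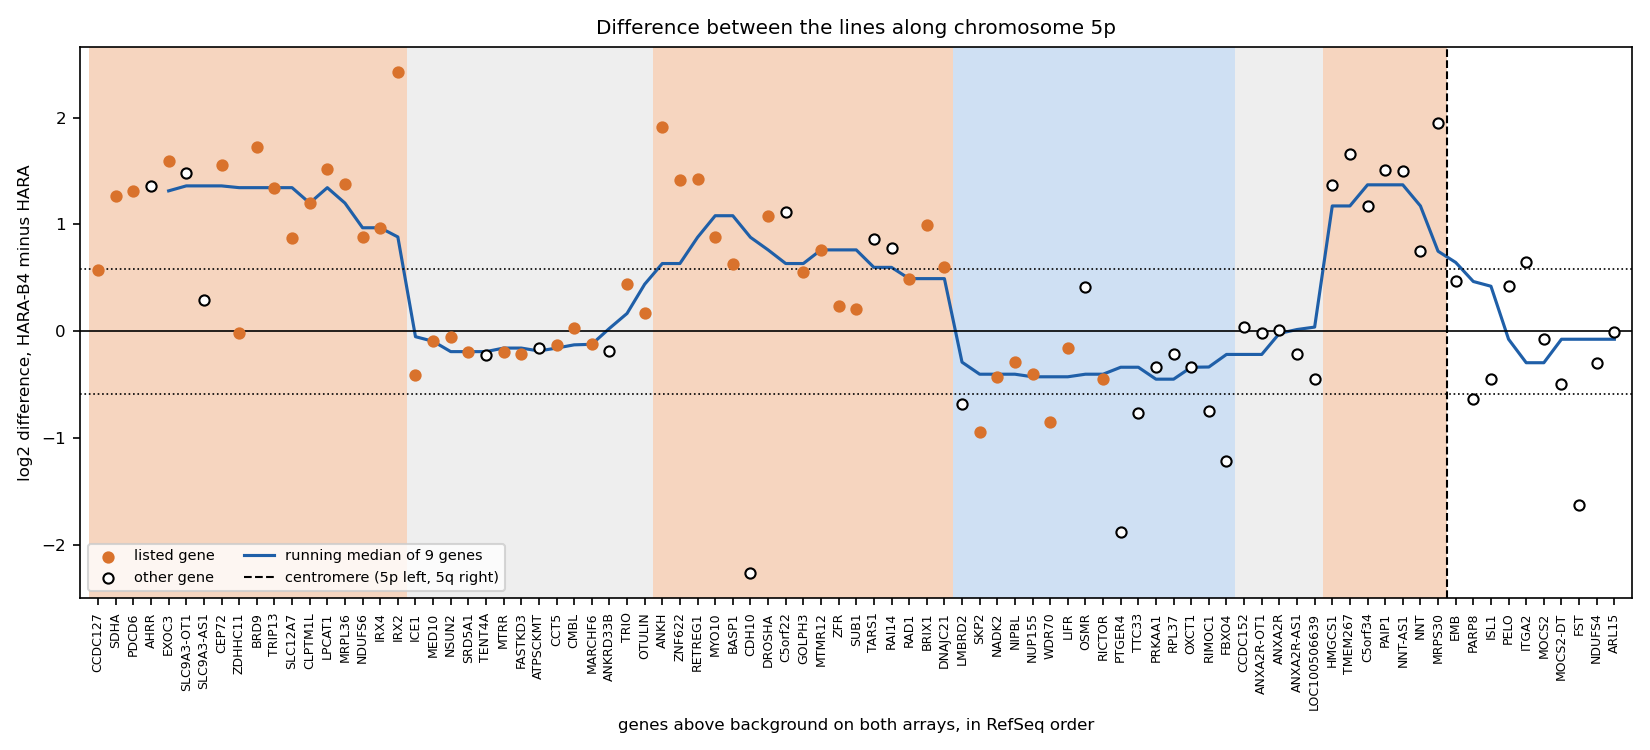
Log2 difference, HARA-B4 minus HARA, for the 77 genes of 5p and the first 10 genes of 5q above background on both arrays, in RefSeq order, with listed genes in orange and other genes in white. The blue line is the running median of 9 genes, dotted lines mark 1.5-fold, and shading marks high (orange), level (grey) and low (blue) stretches. The line lies between 0.88 and 1.36 from EXOC3 to IRX2, between -0.19 and -0.05 from ICE1 to MARCHF6, between 0.49 and 1.08 from ANKH to DNAJC21, between -0.45 and -0.22 from LMBRD2 to FBXO4, and reaches 1.37 beside the centromere.

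The telomere-side high stretch ran from CCDC127 to IRX2 and held 16 genes of the list. Of its 15 members above background on both arrays, 13 stood higher in HARA-B4 by 1.5-fold or more and 10 by 2-fold or more, with a median difference of 1.31 on the log2 scale (2.49-fold). The members' differences ran from -0.01 to 2.43.

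The largest belonged to IRX2, an Iroquois homeobox transcription factor, whose signals were 137 (HARA) and 736 (HARA-B4). Its neighbour IRX4, of the same family, stood at 321 and 629 (log2 difference 0.97). The first value is a 5.37-fold difference, the largest of the 46 genes, and both homeobox genes were higher in HARA-B4.

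The genes of mitochondria and metabolism in this stretch were bright. SDHA, the flavoprotein subunit of succinate dehydrogenase, had signals of 888 in HARA and 2139 in HARA-B4 (1.27), NDUFS6, a subunit of respiratory complex I, 4043 and 7456 (0.88), and MRPL36, of the large mitochondrial ribosomal subunit, 2626 and 6830.4 (1.38). LPCAT1, which makes phosphatidylcholine, stood at 273 and 782 (1.52). All 4 were higher in HARA-B4. SDHA rests on 1 probe set ending in _x_at, a mark for probes that can match other sequences, and SDHA has pseudogene copies elsewhere in the genome.

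Genes of chromosomes and cell division lay in the same stretch. TRIP13, an ATPase of the spindle checkpoint, had signals of 1498 in HARA and 3802 in HARA-B4 (1.34). BRD9, a bromodomain subunit of a SWI/SNF chromatin remodelling complex, stood at 221 and 732 (1.72), and the centrosomal protein gene CEP72 at 86.8 and 255 (1.56). TERT, the catalytic subunit of telomerase, was below background on both arrays by each of its 2 probe sets, at signals of 5.32 and 14.3 for the brighter one. No difference is read for TERT, although its neighbours SLC12A7 and CLPTM1L on either side were measured.

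SLC12A7, a potassium and chloride cotransporter, stood at 347 (HARA) and 636 (HARA-B4), a difference of 0.87, and the membrane protein gene CLPTM1L at 1464 and 3364 (2.30-fold). EXOC3, a subunit of the exocyst that tethers secretory vesicles, stood at 181 and 546 (1.60). PDCD6, a calcium-binding adaptor of membrane traffic and repair, had signals of 995 and 2475 (1.31). These 4 genes were again all higher in HARA-B4.

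The tip of the arm was less even. CCDC127 stood at 504 in HARA and 752 in HARA-B4, a 1.49-fold difference, while a dimmer probe set of the same gene gave 43.8 and 134.9 (1.62). ZDHHC11, of the palmitoyltransferase family, showed 42.5 and 42.2 (-0.01) by a single _x_at probe set, not far above background. Still nearer the tip, PLEKHG4B, not on the list, was above background in HARA-B4 only and at least 2.02-fold higher there.

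Of 17 genes of the telomere-side stretch outside the list, 3 were above background on both arrays, 4 on 1 and 10 on neither. AHRR, the repressor of the aryl hydrocarbon receptor, differed by 1.36, the noncoding SLC9A3-OT1 by 1.49 and SLC9A3-AS1 by 0.29. Another 4 passed background in the subline alone: EXOC3-AS1 was at least 2.55-fold higher there, PDCD6P1 at least 2.28-fold, SLC6A3 at least 1.54-fold and TPPP at least 1.53-fold. A gene that passes in the subline alone can only stand higher there, so the direction of these 4 is no added evidence. The array's annotation does not say which strand each probe set of an antisense gene reads, so EXOC3-AS1 and SLC9A3-AS1 cannot be parted from their host genes with certainty.

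The step down was abrupt. IRX2 was the last high gene (2.43) and ICE1, a scaffold of the complex that transcribes small nuclear RNA genes, was the next gene above background, with signals of 438 in HARA and 329 in HARA-B4 (-0.41). The 6 genes named between them, IRX1, ADAMTS16, its divergent transcript ADAMTS16-DT and the noncoding LINC01019, LINC02114 and LINC01020, were below background on both arrays. The place of the step is therefore known only to lie between IRX2 and ICE1.

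From ICE1 to OTULIN the arm was level by the genes above background on both arrays. All 11 measured members there were above background on both arrays, 0 of them differed by 1.5-fold in either direction, and their median was -0.12, with a range from -0.41 to 0.44. This count and median take each gene by its probe set of highest mean level. Above background on both arrays, a CMBL probe set (-1.54) and a TRIO probe set (0.82) went past 1.5-fold. Of probe sets above background on 1 array only, OTULIN had one lower in HARA-B4 (46.4 in HARA and 21.6 in HARA-B4). TRIO had one higher there (16.3 and 43.8). Outside the list, UBE2QL1 passed background in the parental line alone (45.7, against 20.5 in the subline), at least 1.68-fold lower in the subline.

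Apart from ICE1 (-0.41), RNA and transcription genes of the level stretch barely differed, as did the reductase genes MTRR and SRD5A1. MED10, a Mediator subunit, stood at 401 (HARA) and 376 (HARA-B4), a difference of -0.09, and NSUN2, an RNA cytosine methyltransferase, at 723 and 699 (-0.05). FASTKD3, of mitochondrial RNA metabolism, stood at 414 and 357 (-0.21), and MTRR, the reductase that reactivates methionine synthase, at 482 and 422 (-0.19), with a second probe set at -0.57. SRD5A1, a steroid 5-alpha reductase, gave 605 and 531 (-0.19), with dimmer probe sets of the opposite sign up to 0.21. By the probe set of highest mean level, each of these differences except that of ICE1 is smaller than 0.30. This is the within-gene SD between probe sets over 4830 genes with several, a technical spread.

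Folding and ubiquitin genes of the stretch were as close by their probe sets of highest mean level. CCT5, a subunit of the cytosolic chaperonin, stood at 4124 (HARA) and 3778 (HARA-B4), a difference of -0.13, and MARCHF6, a ubiquitin ligase of the endoplasmic reticulum, at 503 and 463 (-0.12). A dimmer CCT5 probe set gave -0.43. OTULIN, which removes linear ubiquitin chains, gave 121 and 136 (0.17), with another probe set at -0.11. TRIO stood a little higher in HARA-B4, at 132 and 179 (0.44), with 4 probe sets above background on both arrays from 0.15 to 0.82. CMBL, a hydrolase, had probe sets that disagreed: the brighter, an _x_at set, gave 758 and 773 (0.03), and another 813 and 280.5 (-1.54), so its difference depends on the probe set.

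The mid-arm high stretch began at ANKH, the gene next to OTULIN in the measured order, and ended at DNAJC21. It held 15 members, and 13 of 13 above background on both arrays were higher in HARA-B4, 9 of them by at least 1.5-fold and 4 by at least 2-fold. The median was 0.76 (1.70-fold), with a range from 0.21 to 1.91. 

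ANKH, the membrane protein through which cells release the pyrophosphate precursor that restrains mineral deposition in bone and cartilage, had signals of 736 in HARA and 2768 in HARA-B4 (1.91, 3.76-fold). Its 5 probe sets above background ranged from 1.18 to 1.91, and OTULIN beside it differed by 0.17. ZNF622, a ribosome maturation factor, stood at 426 and 1136 (1.42), and RETREG1, a receptor for autophagy of the endoplasmic reticulum, at 119 and 319.7 (1.42). The step up on this side thus fell between 2 neighbouring measured genes.

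Cytoskeletal genes followed with smaller values. MYO10, the myosin of filopodia, stood at 1003 in HARA and 1844 in HARA-B4 (0.88), with probe sets from 0.21 to 1.47, and BASP1, a membrane protein of growth cones, at 723 and 1122 (0.63). The F-box gene FBXL7 was below background on both arrays.

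Between BASP1 and DROSHA lies a row of cadherin, noncoding and other genes, of which CDH10 and CDH9 alone were above background on either array. CDH10, a classical cadherin, was the exception in direction: it stood at 188 in HARA and 39.2 in HARA-B4 (-2.26), the lowest value on the arm, and CDH9 was above background in HARA only and at least 2.66-fold lower in HARA-B4. Both are outside the list, and both went against their neighbours.

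DROSHA, the nuclease that cuts microRNA precursors in the nucleus, stood at 1093 in HARA and 2312 in HARA-B4 (1.08). GOLPH3, a Golgi protein, stood at 1406 and 2065 (0.55) and MTMR12, of the myotubularin family, at 683 and 1159 (0.76). ZFR, an RNA-binding zinc finger protein, gave 1646 and 1939 (0.24), and the transcription coactivator SUB1 5454 and 6309 (0.21). ZFR and SUB1 lie side by side, and their differences were the smallest of this stretch while still positive in 4 of 4 and 5 of 5 probe sets.

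NPR3, the clearance receptor for natriuretic peptides, went from 25.9 in HARA, just under background, to 118 in HARA-B4, at least 4.36-fold higher. Its other 2 probe sets were likewise above background in HARA-B4 only. Neighbours outside the list were higher too, TARS1, a threonyl-tRNA synthetase (0.86), and RAI14 (0.78).

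The last members of the stretch serve DNA damage signalling and ribosome assembly. RAD1, of the checkpoint clamp, stood at 835 in HARA and 1176 in HARA-B4 (0.49), with 5 probe sets from 0.49 to 0.96. BRIX1, a factor of large ribosomal subunit assembly, stood at 635 and 1264 (0.99), and DNAJC21, a cochaperone of the same process, at 758 and 1148 (0.60), with 6 probe sets from 0.22 to 1.03. All 3 were higher in HARA-B4.

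**Figure D3:**
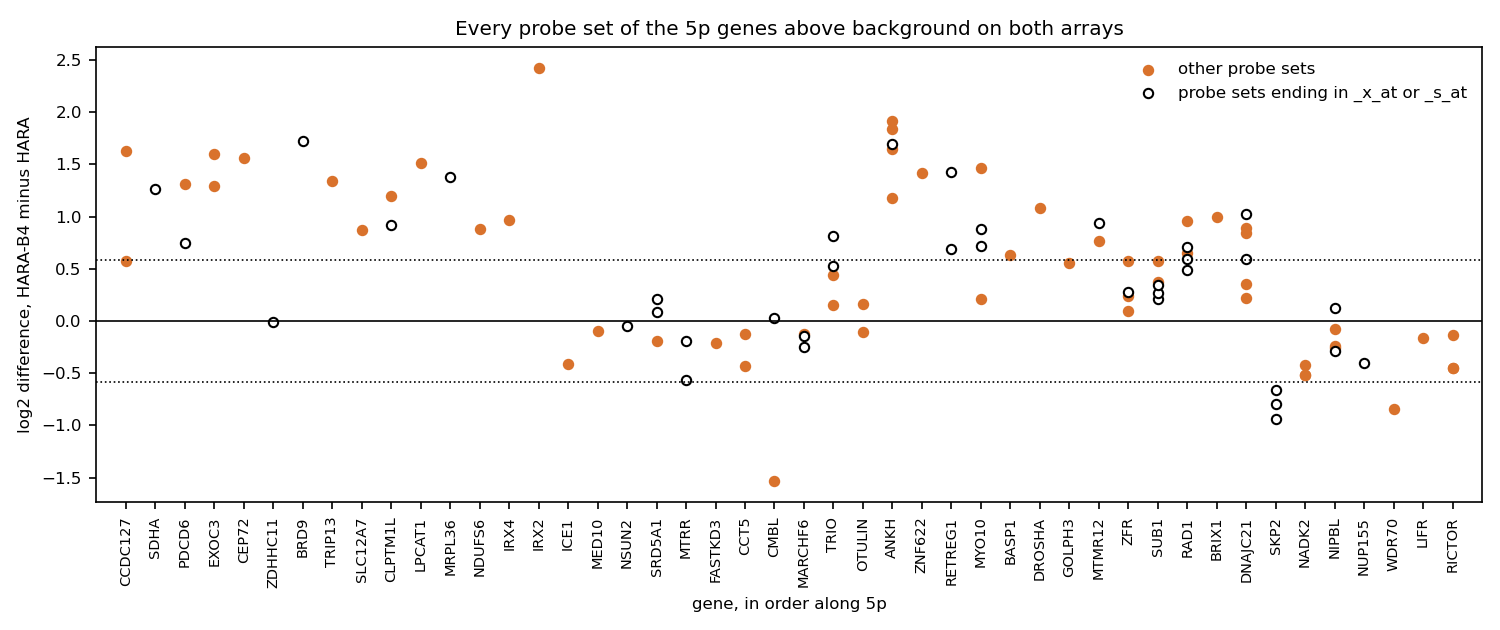
Log2 difference, HARA-B4 minus HARA, of each of the 96 probe sets above background on both arrays for the listed genes, in gene order, with probe sets ending in _x_at or _s_at in white and 1.5-fold marked by dotted lines. Several probe sets of a gene mostly have the same sign, and CMBL shows the widest gap, from -1.54 to 0.03.

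Several probe sets of 1 gene can be set side by side. The same count was not made over all genes, and the members were chosen by their difference, so the count below is a description. Of 23 members with 2 or more probe sets that passed background on both arrays, 19 had all of them on the same side of 0. The 4 that did not, SRD5A1, CMBL, OTULIN and NIPBL, lie in the level and low stretches, and 0 are in the high ones. The high stretches were bounded by their positive differences, so where these 4 lie partly restates that choice. Probe sets share the array and the RNA, so this says nothing of biological repeats.

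After DNAJC21 the values turned. PRLR, the prolactin receptor, was below background on both arrays, and SPEF2 and IL7R, above background in HARA only, were at least 1.77-fold and 1.28-fold lower in HARA-B4. The next gene above background on both arrays was LMBRD2 (-0.68), followed by SKP2, and the 8 members from there to RICTOR were lower in HARA-B4: 7 of 7 above background on both arrays had negative differences, with a median of -0.43 (1.34-fold lower). Of these 7, SKP2 and WDR70 reached 1.5-fold lower, and the eighth, SLC1A3, was above background in HARA only and at least 3.06-fold lower. So the list, named for genes higher in HARA-B4, ends in genes that stood lower there.

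SKP2, the substrate receptor of a ubiquitin ligase that degrades the cell cycle inhibitor p27, stood at 1560.3 in HARA and 812 in HARA-B4 (-0.94), with 3 probe sets from -0.94 to -0.66. NADK2, the mitochondrial NAD kinase, gave 364 and 271 (-0.43), and its 3 probe sets ran from -0.52 to -0.43. SLC1A3, a glutamate and aspartate transporter, had signals of 83.0 in HARA and 25.5 in HARA-B4, the latter under background. SLC1A3 had 1 probe set above background on any array.

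The other lower members had smaller differences. NIPBL, which loads cohesin onto DNA, stood at 615 in HARA and 504 in HARA-B4 (-0.29), with 1 of 5 probe sets positive (0.12). The nuclear pore gene NUP155 gave 496 and 375 (-0.40), and WDR70 355 and 198 (-0.85). LIFR, the receptor of leukemia inhibitory factor, gave 54.9 and 49.2 (-0.16), and RICTOR, the defining subunit of mTORC2, 315 and 231 (-0.45), with 3 probe sets from -0.45 to -0.14. The differences of NIPBL and LIFR are no larger than the technical spread of 0.30.

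Past the end of the list the low stretch went on to FBXO4. OSMR, the oncostatin M receptor chain between LIFR and RICTOR, was the 1 gene of the stretch with a positive difference (0.41). Lower values were found for the prostaglandin receptor PTGER4 (193 in HARA and 52.6 in HARA-B4, -1.88), FBXO4 (-1.21), TTC33 (-0.77), RIMOC1 (-0.74), OXCT1 (-0.34), PRKAA1 (-0.33) and RPL37 (-0.21). From CCDC152 to LOC100506639, 5 of 5 genes above background on both arrays were within 1.5-fold, with a median of -0.02. Another 2 genes there passed background in the subline alone, SELENOP, at least 2.43-fold higher (7.86 and 65.9), and FLJ32255, at least 1.75-fold higher (24.1 and 47.4).

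A further high stretch that the list does not hold lies against the centromere. From HMGCS1 to MRPS30, 7 of 7 genes above background on both arrays stood higher in HARA-B4 by 1.5-fold or more and 6 by 2-fold or more, with a median difference of 2.83-fold. HMGCS1, of cholesterol synthesis, stood at 626 in HARA and 1619 in HARA-B4 (1.37), PAIP1, which binds the poly(A)-binding protein, at 1299 and 3699 (1.51), and MRPS30, of the mitochondrial ribosome, at 1148 and 4420.0 (1.95). TMEM267 (1.66), NNT-AS1 (2.83-fold), C5orf34 (1.17) and NNT, the mitochondrial transhydrogenase (0.75), were higher as well. This stretch was found from the same values that bounded it, and is given as a description.

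Across the centromere the values were mixed at once. The first 10 genes of the long arm above background on both arrays were EMB (0.47), PARP8 (-0.63), ISL1 (-0.45), PELO (0.42), ITGA2 (0.64), MOCS2 (-0.07), MOCS2-DT (-0.49), FST (-1.63), NDUFS4 (-0.29) and ARL15 (-0.01). Of 396 genes of 5q above background on both arrays, 46 (11.6%) stood higher in HARA-B4 by 1.5-fold or more, with a median of 0.12, beside 34 of 77 (44.2%) on 5p, with a median of 0.41. The SD between genes was 0.91 on 5p and 0.53 on 5q. By whole chromosomes, chromosome 5 had the median 0.13, and chromosomes 9 (0.34), 20 (0.16) and 10 (0.13) stood above it among 24. The highest 9-gene median on 5p was 1.37, beside 1.40 on chromosome 1, 0.90 on chromosome 17 and 0.79 on chromosome 9.

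**Figure D4:**
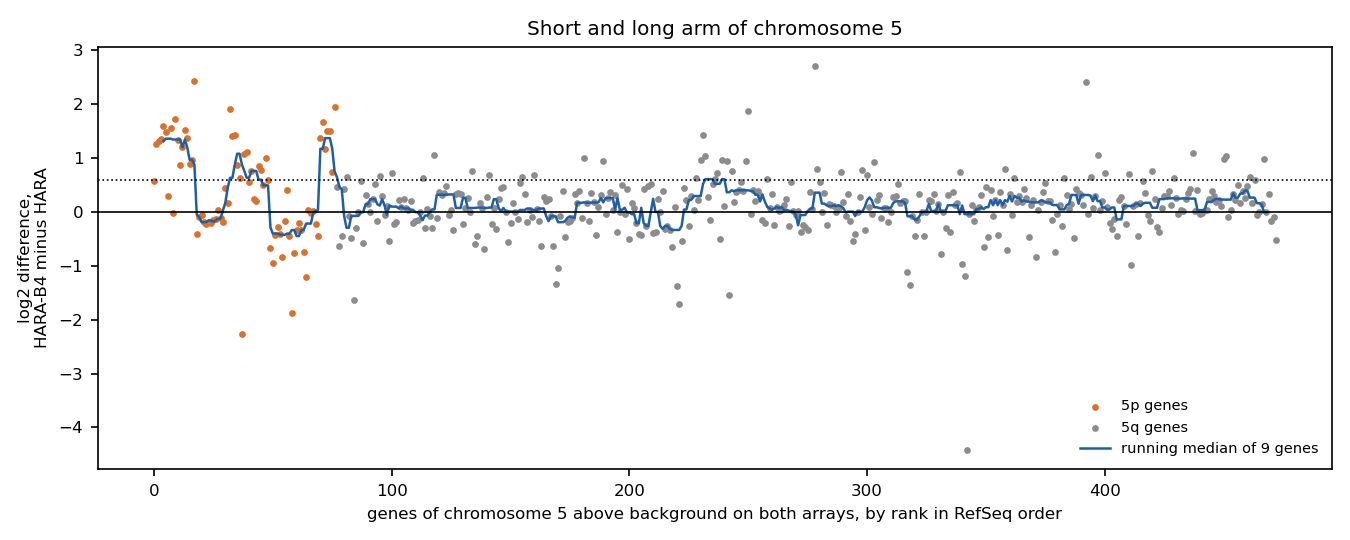
Log2 difference, HARA-B4 minus HARA, of the 473 genes of chromosome 5 above background on both arrays, by rank in RefSeq order, with 5p in orange, 5q in grey, the running median of 9 genes in blue and 1.5-fold dotted. The running median on 5p alternates between -0.45 and 1.37, while on 5q it stays between -0.33 and 0.64.

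Some neighbours on the arm start from 1 shared stretch of DNA, head to head on opposite strands. By RefSeq starts, 5 such pairs of protein-coding genes with at least 1 member lie within 1000 bases of each other. The bases between their starts are shown because both genes of each pair are transcribed away from them, so these letters lie upstream of both. They are from RefSeq assembly GRCh38.p14, plus strand, 5′ to 3′, and capitals mark matches, on either strand, to any of the motifs searched: CCAAT (the CCAAT box), GGGCGG (the GC box), CCGGAAG (an ETS-type motif) and TATAAA (the TATA box). No printed matches overlap. BRD9 has several RefSeq starts, and the nearer to TRIP13 was used.
CCDC127 and SDHA, chr5:218154-218319: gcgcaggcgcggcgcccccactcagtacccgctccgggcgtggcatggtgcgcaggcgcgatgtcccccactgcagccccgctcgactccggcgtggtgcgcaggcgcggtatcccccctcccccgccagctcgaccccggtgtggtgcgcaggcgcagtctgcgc
BRD9 and TRIP13, chr5:892802-892883: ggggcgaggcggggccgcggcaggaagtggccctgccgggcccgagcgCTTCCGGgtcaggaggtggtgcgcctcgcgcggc
DROSHA and C5orf22, chr5:31532094-31532300: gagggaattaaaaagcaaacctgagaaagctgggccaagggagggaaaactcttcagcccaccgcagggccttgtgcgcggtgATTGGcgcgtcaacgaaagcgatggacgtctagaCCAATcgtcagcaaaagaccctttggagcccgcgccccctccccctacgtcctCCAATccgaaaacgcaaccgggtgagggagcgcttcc
RAD1 and BRIX1, chr5:34915505-34915710: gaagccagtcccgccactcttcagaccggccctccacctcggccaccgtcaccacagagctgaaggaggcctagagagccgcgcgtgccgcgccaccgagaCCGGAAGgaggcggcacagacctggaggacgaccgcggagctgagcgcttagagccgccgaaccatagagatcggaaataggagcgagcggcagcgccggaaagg
LMBRD2 and SKP2, chr5:36151888-36152110: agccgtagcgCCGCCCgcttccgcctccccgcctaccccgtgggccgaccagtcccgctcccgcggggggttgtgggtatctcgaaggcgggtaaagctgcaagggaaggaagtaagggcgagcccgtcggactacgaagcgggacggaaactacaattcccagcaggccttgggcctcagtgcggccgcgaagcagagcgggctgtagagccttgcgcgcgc

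The genes of each pair differed in the same direction in 5 of 5 pairs. BRD9 and TRIP13, with 82 bases between their starts, differed by 1.72 and 1.34, and CCDC127 and SDHA, with 166 bases, by 0.58 and 1.27. DROSHA and C5orf22 differed by 1.08 and 1.11, RAD1 and BRIX1 by 0.49 and 0.99, and LMBRD2 and SKP2 by -0.68 and -0.94. The first 4 pairs lie in high stretches and the last in the low one, so a pair's direction was also that of its neighbours, and the 2 cannot be told apart here.

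The letters between the starts differ from pair to pair. The DROSHA and C5orf22 stretch holds 3 matches to CCAAT and is 58.9% G and C, the lowest of the 5, and the BRD9 and TRIP13 stretch, 81.7% G and C, holds 1 match to CCGGAAG. RAD1 and BRIX1 also have 1 match to CCGGAAG, LMBRD2 and SKP2 have 1 to GGGCGG, and CCDC127 and SDHA have none of the 4 motifs searched. The 5 printed stretches have no motif common to all, and no match says only that these letters are not in this window.

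Promoters of 250 bases before and 50 after the start were listed for 46 of the 52 genes. GGGCGG was found in 34 of them (73.9%), beside 58.5% of 15843 protein-coding genes, CCAAT in 13 (28.3%, beside 36.4%), CCGGAAG in 9 (19.6%, beside 14.2%) and TATAAA in 1 (2.17%, beside 9.63%). The median G and C content was 68.7% and 62.7%. Each motif was counted on its own, both strands were searched, and a match is a description of the sequence.

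Grouped by role rather than place, the list was split within every group. The whole list had 22 of 46 genes (47.8%) at least 1.5-fold higher, a share set by its choice, beside 9.57% of all genes. The groups ran from 44.4% to 50%, near the list's share, so their counts are no result about roles. Of 9 genes of mitochondria, metabolism and lipids, 4 were at least 1.5-fold higher, among them SDHA and LPCAT1, and 4 had negative differences, among them MTRR and NADK2 (median 0.03). Of 6 measured genes of telomeres, chromosomes and the cell cycle, 3 were higher and SKP2 lower by 1.5-fold or more (median 0.92). Of 13 genes of transcription, RNA and the ribosome, 6 were higher and WDR70 lower by that fold (median 0.24). Among receptors, transporters and signalling genes, 3 of 6 were higher by that fold (0.66). Among genes of traffic, ubiquitin, folding and the cytoskeleton, 6 of 12 were (0.61).

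Several members encode a subunit whose partners are encoded on other chromosomes. Of 80 such partners above background on both arrays, 2 stood higher in HARA-B4 by 1.5-fold or more (2.50%, beside 9.57% of all genes) and 7 lower (8.75%, beside 10.2%), and their median difference was 0.02, beside 0.02 for all genes. The partner lists were set from general knowledge. The members were chosen by this same difference, and the stretches were bounded after it was seen. Where a member lies beside its partners therefore partly restates that choice and is given as a description. Partners also lie on chromosomes that differ in their medians. SDHAF3, EXOC4, CUL1, NUP205, POT1, HUS1 and CCT6A are on chromosome 7 (median -0.17), and of these CCT6A alone was positive (0.17). MAPKAP1 (0.68), MED22 (0.57) and NUP188 (0.43) are on chromosome 9 (median 0.34), as is CNTFR, above background in HARA only. Whether partners follow their chromosomes was not tested.

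SDHA differed by 1.27, while of the other measured succinate dehydrogenase subunits and assembly factors SDHC differed by 0.55, SDHD by -0.20, SDHAF1 by 0.15 and SDHAF2 by 0.15. SDHAF4 (-0.64) and SDHAF3 (-0.95) were lower in HARA-B4. EXOC3 (1.60) stood above each of 7 other exocyst subunits, which ran from EXOC4 at -0.67 to EXOC6 at 0.47. NDUFS6 (0.88) likewise lay above the range of 8 complex I subunits of other chromosomes, from -0.38 to 0.53.

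Members of the level and low stretches, which were bounded by these same differences, lay within or below the range of their partners. CCT5 (-0.13) lay below each of 6 other chaperonin subunits, which ran from 0.09 to 0.24. MED10 (-0.09) lay within 13 Mediator subunits with a median of 0.02, of which MED13 was at least 1.5-fold lower (-0.62). SKP2 (-0.94) lay below CUL1 (-0.51), RBX1 (0.21) and CKS1B (0.34), which are subunits or a cofactor of the same ubiquitin ligase, and the mRNA of its target p27, CDKN1B, differed by -0.18. NUP155 (-0.40) lay within 11 nuclear pore genes (median 0.02), of which NUP205 was at least 1.5-fold lower (-0.81).

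NIPBL (-0.29) had as its partner in loading cohesin MAU2, which was lower (-0.67), and the median of 9 cohesin genes of other chromosomes was 0.02. RICTOR differed by -0.45 and MTOR by -0.45, while the mTORC2 subunit MAPKAP1 (0.68) and the regulator PRR5L (1.99) were higher. RAD1 (0.49) stood above its clamp partners RAD9A (0.25) and HUS1 (-0.16). TERT was below background. Of 9 measured genes of telomerase assembly and shelterin on other chromosomes, 1 was at least 1.5-fold lower, POT1 (-0.87). At that fold 0 were higher, and the median of the 9 was -0.22, with 3 above 0 and 6 below. For the ligands LIF, OSM and CTF1, signals were below background in both lines. LIF in HARA was just under it (26.7, and 1.81 in HARA-B4) and above the alternative background of 25.2. The receptor gene CNTFR was just above background in HARA only (27.3, and 14.9 in HARA-B4). LIFR's partner IL6ST, on 5q, differed by -0.17.

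**Figure D5:**
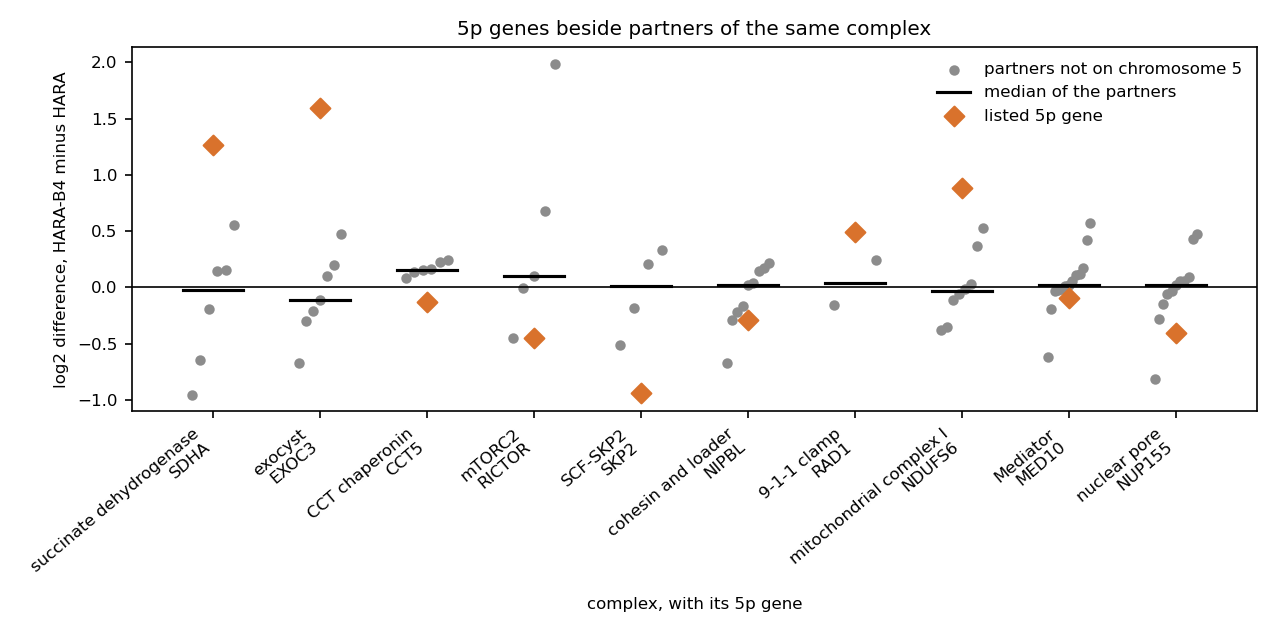
Log2 difference, HARA-B4 minus HARA, of listed 5p genes (orange diamonds) beside partners of the same complex or pathway that are not on chromosome 5 (grey points, with a black bar at their median), for genes above background on both arrays. SDHA, EXOC3, RAD1 and NDUFS6 lie above each of their partners, and CCT5 and SKP2 below each of theirs. The listed genes were chosen by this difference, so their places are a description.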

How the data were processed

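The authors deposited a linear intensity for each of 54675 probe sets on 2 arrays, 1 per line, made with Affymetrix Expression Console per the submitters' processing notes; version, algorithm and scaling: not given in the sources used here. Log2 values of these intensities were taken with no further scaling, in Python 3.11.15. Of the probe sets, 41097 had 1 gene symbol and 1801 several, and 41043 were matched by Entrez ID to RefSeq (GRCh38.p14), giving 19735 genes. RefSeq served for symbols, gene order and the printed sequences. A gene above background on 1 array only gives a lower bound, its brighter signal over the background signal. Which array passed sets the direction of such a gene. With 1 array per line, no test was made.

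All members were accounted for. Other 5p genes were named by the 3 highest and 3 lowest differences, and by position. Genes named outside this rule were chosen after their values were seen. The members and lists were chosen with earlier results of these data known. The scripts were tested on simulated data. The bounds of the stretches, the wider receptor set and the reading of the first of several runs as the telomere-side rise were settled after values were seen. Alternatives changed the scaling, trend, background, probe set choice, pseudocount (16), window and threshold.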

Additional observations from a re-analysis of the deposited data

How the results depend on the processing

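Of 130 recomputed values, 127 stayed within the technical spread of 0.30, within 1.5 times the count, or, for the end of the telomere-side rise, within 4 measured genes. The count of members at least 1.5-fold higher ran from 18 to 24 and at least 2-fold from 11 to 16, and the members' median from 0.52 to 0.65. The median of the telomere-side stretch ran from 1.27 to 1.34, of the mid-arm stretch from 0.70 to 0.91 and of the low stretch from -0.58 to -0.41. With no background filter the telomere-side rise ended at gene number 37, LINC02114, in place of IRX2, number 34 in the order of named genes, since genes below background enter the windows. With a background higher by 1 (log2), the median of the 5p genes outside the list was 0.35 in 24 genes, in place of 0.02 in 31. Leaving out _x_at and _s_at probe sets, 2 divergent pairs were left, both with the same direction, since the other pairs lost a gene. With receptor pseudogenes left out of the background set, a choice tried first and set aside after values of 5p genes had been seen, 48 members passed background on both arrays, 23 stood at least 1.5-fold and 15 at least 2-fold higher, and their median stayed at 0.57. The alternatives for the stretches, pairs and partners were chosen after seeing the data. No paired analysis was possible because each line has 1 array. With 1 array per line, the spread between cultures is unknown, and differences of genes near the background signal are uncertain in size.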
